A study of Homo sapiens with 12 samples.

Results

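Cyclins are the regulatory subunits of the cyclin-dependent kinases (CDKs), and the 10 cyclin genes described here are CCND1, CCND3, CCNE1, CCNE2, CCNA2, CCNB1, CCNB2, CCNF, CCNG1 and CCNG2. They were found as every probe set that the array's annotation assigns to these symbols alone, which gave 23 of the 54675 probe sets and 10 of the 19775 named genes. RNA came from MDA-MB-231 cells, an established human triple-negative breast cancer line, seeded sparsely and transfected on day 2 with siRNA at 33 nM. The control group received a control siRNA, and the other groups received YAP/TAZ siRNA mix 1 or mix 2, each of which targets YAP (gene YAP1) together with TAZ (gene WWTR1). All cells had fresh medium on day 3 and were harvested on day 4. Each of the 3 groups had 4 biological replicates, A to D, plated, transfected and harvested in parallel, and each replicate was measured on 1 Affymetrix Human Genome U133 Plus 2.0 array.

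In the textbook cycle, D cyclins join CDK4 and CDK6 in response to growth signals, and E cyclins join CDK2 at the entry into DNA replication. Cyclin A2 serves CDK2 in S phase and CDK1 in G2, and B cyclins drive mitosis with CDK1. Cyclin F is different, since it binds no CDK and is the substrate-recognising subunit of a ubiquitin ligase, and the G cyclins are linked to cell cycle arrest and to the phosphatase PP2A. YAP and TAZ are transcriptional coactivators of the Hippo pathway that act through TEAD factors and promote growth.

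Values are RMA levels on a log2 scale, on which 1 unit is a 2-fold difference, and levels of different probe sets cannot be set against each other. A gene is represented by its brightest probe set. Differences were tested with limma over 13225 genes whose mean exceeded 5.46 log2, and "called" means a Benjamini-Hochberg adjusted p below 0.05. The 4 control arrays serve in the comparison of either mix with control, so these comparisons are not independent. YAP1 lay at 11.03 to 11.26 log2 on the control arrays, 7.67 to 8.44 with mix 1 and 7.98 to 8.19 with mix 2, and WWTR1 at 11.27 to 11.49, 8.78 to 9.25 and 8.83 to 9.07. Array medians ranged from 5.69 to 5.78 log2, and replicate arrays correlated across genes at 0.993 to 0.998. The line's marker genes VIM, CD44, EGFR, AXL and CAV1 were all above 11 log2 in control. AXL (-1.11 and -0.41) and CD44 (-0.26 and -0.29) fell under both mixes and CAV1 with mix 1 (-0.31). VIM was higher with mix 1 (0.12, adjusted p = 0.031) and EGFR with mix 2 (0.24, adjusted p = 0.000836). The summed level of the 5 was 64.39 to 64.67 log2 in control, 62.68 to 63.26 with mix 1 and 63.96 to 64.04 with mix 2. In control, the receptor genes ESR1, PGR and ERBB2 were at 6.31, 3.56 and 7.76.

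Cyclins of S phase, G2 and mitosis and both E cyclins fell under both mixes, the D cyclin genes CCND1 and CCND3 stayed within 1.4-fold of control, and CCNG2 rose about 4-fold or more. With mix 1, 6 of the 10 genes were lower and 3 higher, where 32.3% of all tested genes were lower and 34.8% higher. With mix 2, 8 were lower and 1 higher, against 31.9% and 36.7% of all genes. All 6 that fell with mix 1 fell at least 2-fold, and the same count held for mix 2. The median log2 change over the 10 genes was -1.20 with mix 1 and -1.39 with mix 2, beside 0.005 and 0.03 over all tested genes. Arrays of the knockdown and control groups did not overlap for 9 genes under mix 1 and for all 10 under mix 2, as was the case for 63.3% and 64.8% of all genes. In a culture, fewer cells in a cycle phase and less RNA per cell cannot be told apart with these values.

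**Figure D1:**
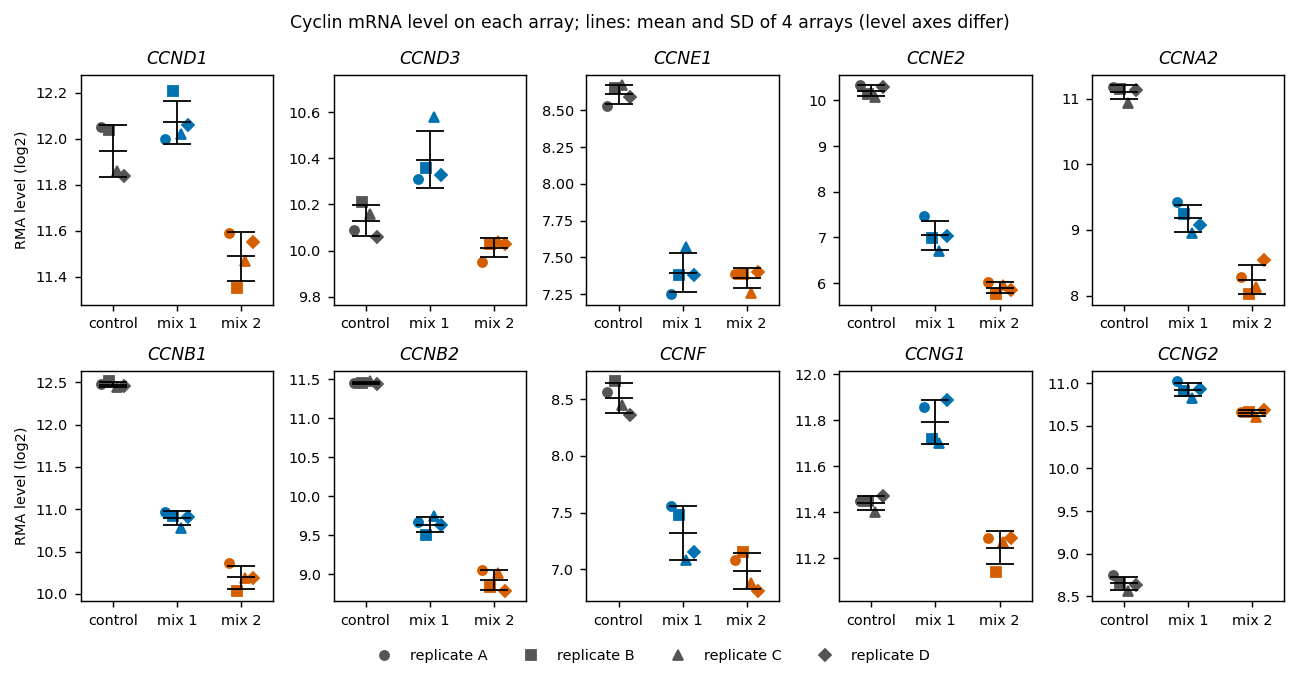
RMA level (log2) of each of the 10 cyclin genes on each of the 12 arrays, by group, with marker shapes for replicates A to D and lines for the mean and SD of 4 arrays; the level axes differ between genes. For CCNE2, CCNA2, CCNB1 and CCNB2 the 3 groups are separate, with control highest and mix 2 lowest, whereas for CCNG2 control is lowest.

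The promoters of the S to M phase cyclins are shown here because these genes moved together, and that of CCNG2 because it moved the other way. Promoter sequence from RefSeq (GRCh38.p14) matched 8 of the 10 genes; CCND1 and CCNE2 were the others. Each window holds the 250 bases before the transcript start, 5′ to 3′ on the gene's strand, with capitals for 2 motifs known from genes of G2 and mitosis. The first is the CCAAT box, the letters CCAAT, which the factor NF-Y binds. The second is the cell cycle genes homology region (CHR), searched as the letters TTTGAA, the letters TTCGAA or the letters CTTGAA, which MuvB complexes bind. Both strands were searched, so a CCAAT box on the other strand reads ATTGG. The window of CCNA2 is chr4:121823884-121824133, minus strand, that of CCNB1 is chr5:69166900-69167149, plus strand, and that of CCNB2 is chr15:59104896-59105145, plus strand. Those of CCNF and CCNG2 are chr16:2429197-2429446, plus strand, and chr4:77156957-77157206, plus strand.
CCNA2: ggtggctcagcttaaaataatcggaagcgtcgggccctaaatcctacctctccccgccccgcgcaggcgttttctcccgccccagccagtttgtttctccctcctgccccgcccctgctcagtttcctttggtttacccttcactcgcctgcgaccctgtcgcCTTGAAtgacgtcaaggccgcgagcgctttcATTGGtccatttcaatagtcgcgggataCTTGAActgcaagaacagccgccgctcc
CCNB1: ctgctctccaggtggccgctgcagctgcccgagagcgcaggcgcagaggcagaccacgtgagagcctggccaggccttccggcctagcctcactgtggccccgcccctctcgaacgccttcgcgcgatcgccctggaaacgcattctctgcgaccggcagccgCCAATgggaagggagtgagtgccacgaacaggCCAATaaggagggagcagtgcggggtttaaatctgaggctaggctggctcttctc
CCNB2: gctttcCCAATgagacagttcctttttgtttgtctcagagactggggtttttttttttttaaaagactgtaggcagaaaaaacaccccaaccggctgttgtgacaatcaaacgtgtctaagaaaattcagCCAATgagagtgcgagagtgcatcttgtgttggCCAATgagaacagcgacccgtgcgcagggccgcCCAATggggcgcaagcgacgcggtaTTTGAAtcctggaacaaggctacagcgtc
CCNF: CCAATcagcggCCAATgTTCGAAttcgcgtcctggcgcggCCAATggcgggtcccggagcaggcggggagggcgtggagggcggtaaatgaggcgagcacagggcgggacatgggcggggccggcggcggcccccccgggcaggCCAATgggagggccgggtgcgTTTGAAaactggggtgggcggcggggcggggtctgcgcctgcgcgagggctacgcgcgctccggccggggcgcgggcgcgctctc
CCNG2: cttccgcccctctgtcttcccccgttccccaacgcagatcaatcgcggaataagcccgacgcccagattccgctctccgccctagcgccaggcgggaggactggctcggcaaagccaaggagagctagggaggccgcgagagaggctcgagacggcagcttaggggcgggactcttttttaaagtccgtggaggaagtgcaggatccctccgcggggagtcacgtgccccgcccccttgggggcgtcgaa

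All 4 cyclins of S phase to mitosis had a CCAAT box in this window, as did 32.0% of the 35116 promoter windows in the table. CCNB2 had 4, with starts at -244, -120, -87 and -54 from the transcript start, and CCNF had 4, at -250, -239, -210 and -106. CCNB1 had 2, at -87 and -55, and CCNA2 had 1, at -56. A pair in 1 orientation with starts 31 to 34 bases apart, a spacing chosen after the sequences were seen, occurred in CCNB1 and CCNB2 and in 0.963% of all windows. The CHR letters were present in CCNA2 (-87 and -28), CCNB2 (-29) and CCNF (-233 and -85), and in 21.9% of all windows. The CCNG2 window and that of CCNE1 held neither motif. A CCAAT box is not particular to the genes that fell under both mixes, since CCNG1, with 2 annotated starts and overlapping windows, had 4 in each and CCND3 had 1 in 2 of its 3 windows. The E2F letters TTTCCCGC, TTTGGCGC, TTTCGCGC and TTTGCCGC, the forkhead letters GTAAACA and the AP-1 letters TGANTCA were in none of the 11 member windows and in 2.79%, 2.98% and 6.57% of all windows. The TEAD letters GGAATG were in 1 window of CCND3 and in 11.9% of all. A match of letters is a description of the sequence only.

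Among the D cyclins, which sense growth signals, CCND1 read 12.05, 12.04, 11.86 and 11.84 log2 in control replicates A to D, 12, 12.21, 12.02 and 12.06 with mix 1, and 11.59, 11.35, 11.47 and 11.55 with mix 2. The mix 1 arrays overlapped the control arrays and the mix 2 arrays lay below both. CCND1 differed from control by 0.12 log2 with mix 1 (95% confidence interval -0.03 to 0.28, adjusted p = 0.155), which did not pass, and fell by 0.46 with mix 2 (SE 0.07, adjusted p = 6.26e-05), leaving 72.8% of the control level. Its second probe set gave 0.04 and -0.44.

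CCND3, the D cyclin best known from lymphoid cells, was at 10.09, 10.21, 10.16 and 10.06 log2 in control. With mix 1 it was at 10.31, 10.36, 10.58 and 10.33, and with mix 2 at 9.95, 10.03, 10.04 and 10.03. It rose by 0.27 log2 with mix 1 (SE 0.07, adjusted p = 0.0024), with every array above control. With mix 2 every array lay just below control, but the difference of -0.12 (95% confidence interval -0.26 to 0.02) did not pass (adjusted p = 0.13), and its sign turned with the mean of the 2 CCND3 probe sets (0.16, adjusted p = 0.0698). Mix 2 was thus below mix 1 by 0.38 (adjusted p = 0.000185), a call lost with that mean (-0.06, adjusted p = 0.563), since the dim one, at 5.85 log2 in control, rose with mix 2 by 0.43 (adjusted p = 0.00413). Within arrays, CCND3 minus CCND1 was 0.34 log2 higher with mix 2 than in control (exact permutation test, two-sided, p = 0.0286, the smallest that 4 against 4 arrays allow; adjusted p = 0.0429 over 12 such tests) and 0.14 higher with mix 1 (p = 0.257).

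The E cyclins, both of which activate CDK2 at the start of replication, fell by very different amounts on their brightest probe sets. CCNE2 was at 10.33, 10.14, 10.07 and 10.30 log2 in control, 7.46, 6.99, 6.70 and 7.03 with mix 1, and 6.03, 5.76, 5.96 and 5.84 with mix 2. The 3 groups did not overlap, and mix 2 brought CCNE2 close to the filter level of 5.46 log2, near the array's background. Its log2 change was -3.17 with mix 1 (SE 0.13, adjusted p = 2.04e-11) and -4.31 with mix 2 (adjusted p = 7.42e-13), leaving 11.2% and 5.03% of the control level. Among all 13225 genes these changes ranked 16 and 6 from the lowest. The dimmer CCNE2 probe set was also lower under both mixes, but its levels of 4.71 with mix 1 and 4.24 with mix 2 were below the filter level, so its measured changes of -3.19 and -3.66 do not give the size of the fall.

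CCNE1 was at 8.53, 8.65, 8.67 and 8.59 log2 in control. It was at 7.25, 7.38, 7.57 and 7.38 with mix 1 and at 7.39, 7.39, 7.26 and 7.40 with mix 2, so both knockdown groups lay below control and overlapped each other. Its level was 43.1% of control with mix 1 (log2 change -1.22, adjusted p = 8.49e-10) and 42.0% with mix 2 (-1.25, adjusted p = 5.29e-10). CCNE2 minus CCNE1, taken within each array, changed by -1.95 log2 from control to mix 1, by -3.06 from control to mix 2, and by -1.11 from mix 1 to mix 2. Each of these 3 differences had an exact permutation p of 0.0286 (adjusted p = 0.0429 over 12 tests). On the brightest probe sets, the measured fall of CCNE2 therefore exceeded that of CCNE1 under both mixes, and more so under mix 2. The other CCNE1 probe set, at 4.73 log2 in control, lay below the filter level and gives no second measure of the size.

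CCNA2, which serves CDK2 and CDK1 from S phase on, stood at 11.18, 11.15, 10.94 and 11.13 log2 in control, 9.42, 9.24, 8.96 and 9.08 with mix 1, and 8.28, 8.03, 8.13 and 8.54 with mix 2. The groups did not overlap. It fell 3.80-fold with mix 1 (log2 change -1.93, SE 0.11, adjusted p = 1.34e-09) and 7.24-fold with mix 2 (-2.86, adjusted p = 1.61e-11). The other CCNA2 probe set fell as well, with -2.33 and -3.08.

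The mitotic cyclin genes CCNB1 and CCNB2 behaved much alike on their brightest probe sets. CCNB1 was at 12.48, 12.51, 12.44 and 12.46 log2 in control, 10.97, 10.92, 10.78 and 10.91 with mix 1, and 10.37, 10.04, 10.19 and 10.19 with mix 2. CCNB2 was at 11.45, 11.45, 11.47 and 11.44 in control, 9.67, 9.50, 9.74 and 9.63 with mix 1, and 9.05, 8.84, 9.02 and 8.79 with mix 2. In each gene the control arrays lay within 0.07 log2 of each other, and each group stood apart from the others. CCNB1 fell by 1.58 on the log2 scale with mix 1 (SE 0.07, adjusted p = 5.1e-11) and by 2.28 with mix 2 (adjusted p = 1e-12). For CCNB2 the log2 changes were -1.82 (SE 0.07, adjusted p = 1.5e-11) and -2.53 (adjusted p = 4.3e-13).

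Whether CCNB2 fell more than CCNB1 depended on the probe sets. CCNB2 minus CCNB1 changed by -0.25 log2 from control to mix 2 on the brightest probe sets (exact permutation p = 0.0286, adjusted p = 0.0429), but by 0.13 (exact permutation p = 0.0571) when CCNB1 was read by its second probe set, whose changes were -1.49 and -2.66. The other 2 CCNB2 probe sets, at 5.87 and 4.22 log2 in control, showed no called change under either mix. With mix 1, CCNB2 minus CCNB1 changed by -0.24 on the brightest probe sets (exact permutation p = 0.0571, adjusted p = 0.0761). With the second CCNB1 probe set it changed by -0.33 (exact permutation p = 0.0286, adjusted p = 0.0429 over 9 tests). With the mean of each gene's probe sets, which takes in the CCNB2 probe set at 5.87 log2, it was 0.58. An order between the B cyclins that holds under both mixes is therefore not established.

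CCNF, whose protein directs ubiquitin to replication and centrosome proteins, read 8.57, 8.66, 8.45 and 8.36 log2 in control. It read 7.56, 7.48, 7.08 and 7.15 with mix 1 and 7.08, 7.15, 6.88 and 6.81 with mix 2, so the mixes overlapped. Its level was 43.8% of control with mix 1 (log2 change -1.19, SE 0.11, adjusted p = 2.5e-07) and 34.6% with mix 2 (-1.53, adjusted p = 1.43e-08). The second CCNF probe set was lower too, from 6.38 log2 in control to 5.22 and 5.17, both below the filter level, so the size of its fall was not measured. Of 7 reported substrates of cyclin F, 6 fell under both mixes, with medians of -1.63 and -2.54. They included the nuclease gene EXO1 (-2.94 and -3.79), the replication licensing factor CDC6 (-2.63 and -3.59) and RRM2 (-2.34 and -3.22), a subunit of ribonucleotide reductase. FZR1 was the member without a call (0.15 and -0.005, adjusted p = 0.138 and 0.966).

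The G cyclins did not follow the others. CCNG2, an unstable cyclin known to be high in arrested cells and to be a target of FOXO factors, was at 8.75, 8.66, 8.57 and 8.64 log2 in control, 11.02, 10.91, 10.83 and 10.93 with mix 1, and 10.66, 10.66, 10.60 and 10.68 with mix 2. All 8 knockdown arrays lay far above control, and mix 1 above mix 2. CCNG2 rose 4.82-fold with mix 1 (log2 change 2.27, SE 0.06, adjusted p = 3.09e-13) and 3.99-fold with mix 2 (2.00, adjusted p = 6.48e-13). It was the sole gene of the 10 that was higher under both mixes. Among its 4 other probe sets, 3 rose as well, by 2.31, 2.48 and 2.43 with mix 1 and by 2.21, 2.35 and 1.31 with mix 2. The fifth CCNG2 probe set, at 5.70 log2 in control, did not change by a called amount (-0.04 and -0.07).

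CCNG1, a direct target gene of p53, moved in opposite directions. It was at 11.45, 11.45, 11.40 and 11.47 log2 in control, 11.86, 11.72, 11.70 and 11.89 with mix 1, and 11.29, 11.14, 11.27 and 11.29 with mix 2. The groups did not overlap although the differences are small. CCNG1 rose by 0.35 log2 with mix 1 (SE 0.06, adjusted p = 0.000112) and fell by 0.20 with mix 2 (adjusted p = 0.00982). It is read by a single probe set, of the _s_at kind, which can bind several transcripts. CCNG2 minus CCNG1 rose by 1.92 log2 within arrays with mix 1 and by 2.19 with mix 2 (exact permutation p = 0.0286 each, adjusted p = 0.0429).

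**Figure D2:**
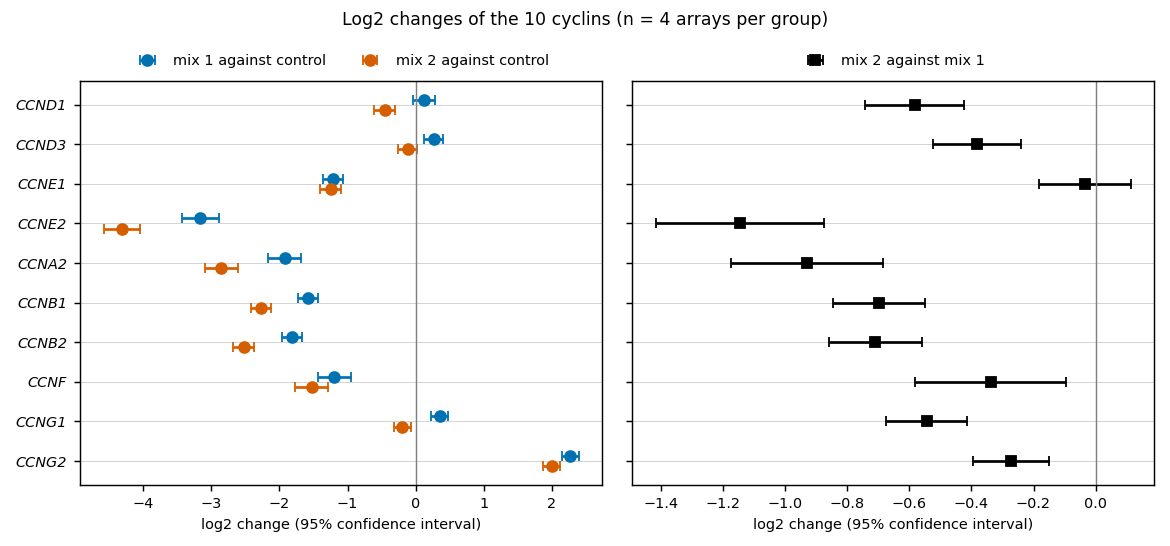
Log2 changes of the 10 cyclin genes with 95% confidence intervals, against control for mix 1 and mix 2 on the left, and for mix 2 against mix 1 on the right, n = 4 arrays per group. All points on the right lie below 0, and the interval of CCNE1 (-0.18 to 0.11) includes 0.

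Set directly against mix 1, mix 2 gave lower levels of 9 of the 10 cyclins and higher levels of none, where 25.0% of all genes were lower and 28.7% higher. Arrays of the 2 mixes did not overlap for 8 of the 10, beside 46.1% of all genes. The differences were -1.15 for CCNE2 (SE 0.13, adjusted p = 2.55e-06), -0.93 for CCNA2 (adjusted p = 7.28e-06), -0.71 for CCNB2 (adjusted p = 8.21e-07) and -0.70 for CCNB1 (adjusted p = 8.43e-07). They were -0.58 for CCND1 (adjusted p = 1.13e-05), -0.55 for CCNG1 (adjusted p = 2.63e-06) and -0.27 for CCNG2 (adjusted p = 0.00104). CCNF differed by -0.34 (SE 0.11, adjusted p = 0.0211), a call that was lost without mix 1 replicate A (-0.26, adjusted p = 0.0723) or B (-0.28, adjusted p = 0.0676) or mix 2 replicate C (-0.30, adjusted p = 0.0579) or D (-0.28, adjusted p = 0.0657). In the limma fit of all 12 arrays with the replicate letters as a block, CCNF differed by -0.34 (SE 0.06, adjusted p = 0.00055). CCNE1 did not differ by a called amount (-0.04, 95% confidence interval -0.18 to 0.11, adjusted p = 0.703). Knockdown of YAP1 and WWTR1 mRNA did not differ between the mixes past the threshold (-0.06, adjusted p = 0.73, and -0.12, adjusted p = 0.344).

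The difference between 3′ and 5′ control probe sets of ACTB, a measure of RNA quality, was 1.61 to 2.24 log2 with mix 1, 1.36 to 1.83 with mix 2 and 1.38 to 1.99 in control. Between the mixes its exact permutation p was 0.114 (adjusted p = 0.552 over 9 tests of array measures); its part in the cyclin differences was not tested.

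Counting every probe set, 16 of 23 were called with mix 1 (10 lower, 6 higher), 19 with mix 2 (14 lower, 5 higher) and 14 between the mixes (all lower with mix 2). Over all 41091 probe sets the shares were 43.2%, 44.3% and 32.1%. In all, 21 of the 23 had a mean above the filter level, and the exceptions were the second probe set of CCNE1 (4.73 log2 in control) and the dimmest of CCNB2. Against control, where the brightest probe set of a gene had a called change and another had none, the other was 1 of the 6 probe sets with a control mean below 6 log2. A CCNG2 probe set of those 6, at 5.87 log2 in control, rose under both mixes. Between the mixes, that CCNG2 probe set differed by -1.12 (adjusted p = 9.41e-07), beside -0.27 for the brightest. Other CCNG2 probe sets (-0.10, -0.13 and -0.035) showed no called difference between the mixes where the brightest did. The second CCNF probe set showed none either (-0.05, adjusted p = 0.857), and its means lay below the filter level with both mixes. Those of the second CCNE2 probe set did too, but its difference was called (-0.47, adjusted p = 0.0437).

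**Figure D3:**
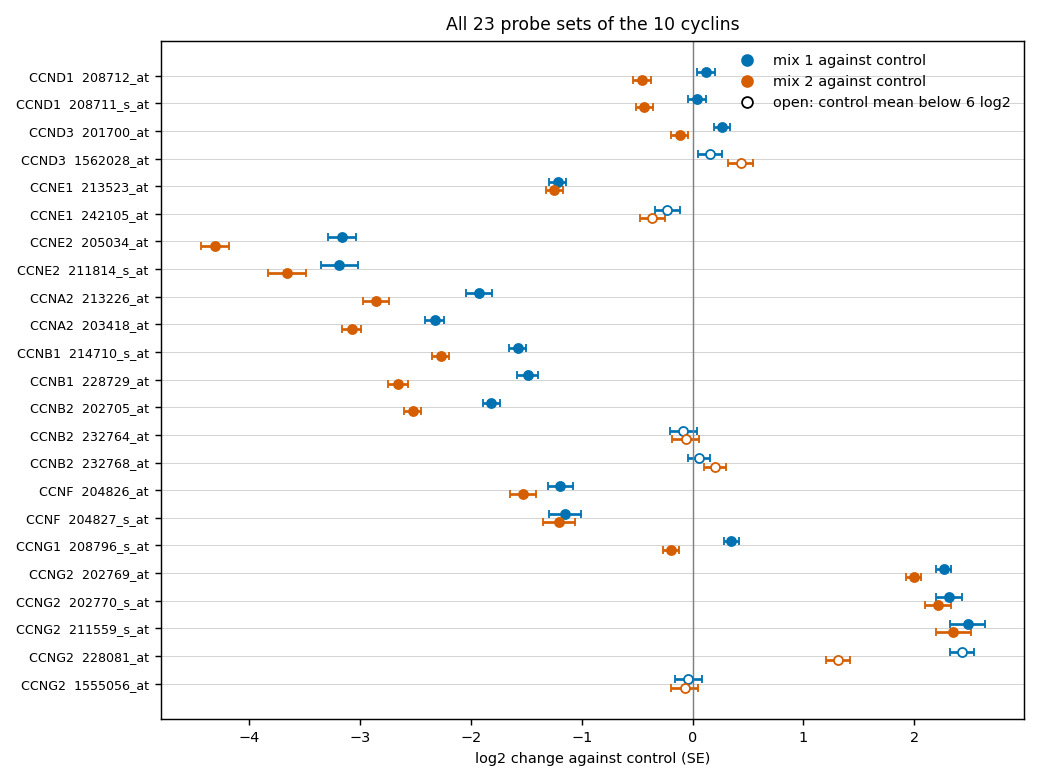
Log2 change against control (points, with SE) of all 23 probe sets of the 10 cyclin genes, n = 4 arrays per group; open points mark the 6 probe sets with a control mean below 6 log2. Probe sets of CCNE2, CCNA2, CCNB1 and CCNF all lie left of 0, and 4 of the 5 for CCNG2 lie to the right, between 1.31 and 2.48.

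The kinase partners of the cyclins and the enzymes that activate them mostly fell too. Of 11 such genes, 9 fell and 1 rose with mix 1 (median -0.94), and 8 fell and 1 rose with mix 2 (median -1.25). For this and the following lists, the shares over all tested genes were 32.3% lower and 34.8% higher with mix 1. With mix 2 they were 31.9% and 36.7%. The phosphatase gene CDC25A, which switches on CDK2, had changes of -2.41 and -4.06, the mitotic kinase CDK1 had -2.33 and -2.58, and the phosphatase CDC25C had -1.57 and -2.56. Those that rose were CDK6, a partner of D cyclins, with mix 1 (0.18, adjusted p = 0.0108; -0.60 with mix 2), and CDK7, the kinase that activates CDKs, with mix 2 (0.25, adjusted p = 0.0102). Among 7 tested CDK inhibitors and inhibitory kinases, 4 rose and 2 fell with mix 1, and 2 rose and 3 fell with mix 2. CDKN1B, the inhibitor p27, rose under both mixes (1.14 and 1.48), as did CDKN1C (0.90 and 0.25), while the kinase gene PKMYT1 (-0.95 and -1.06) and CDKN2D (-0.48 and -0.73) fell and WEE1 was higher with mix 1 (0.21) and lower with mix 2 (-0.19). CDKN1A, the inhibitor p21, named after its values were seen, rose with mix 1 (1.54, adjusted p = 2e-11) and not by a called amount with mix 2 (0.09, adjusted p = 0.224), and the mixes differed by -1.45 (adjusted p = 1.38e-10).

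**Figure D4:**
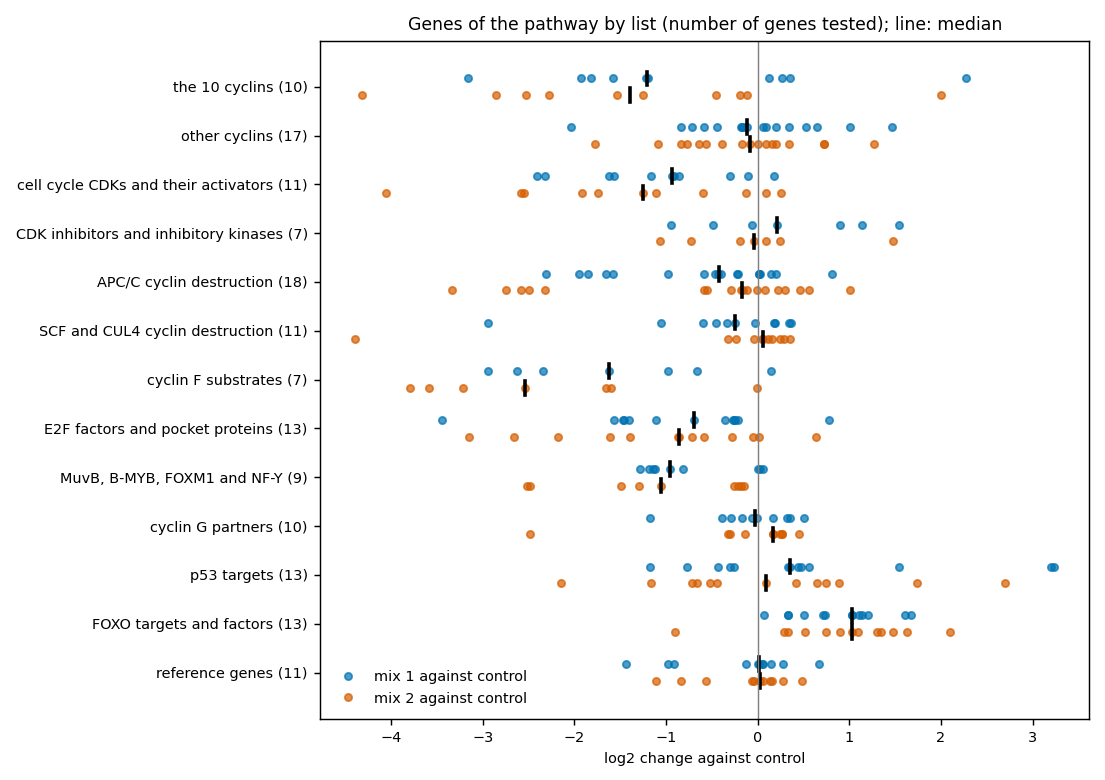
Log2 change against control of every tested gene among the 10 cyclins and in 12 lists of related and reference genes, as points by list and siRNA mix, with a line at the median. Cyclin F substrates have medians of -1.63 and -2.54 and FOXO genes 1.03 under each mix, while reference genes have medians of 0.02 and 0.03.

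Cyclins are removed by ubiquitin ligases, and the genes of these enzymes split. In the list of the anaphase-promoting complex (APC/C), which destroys cyclins A and B, 12 of 18 genes fell and 2 rose with mix 1, and 10 fell and 4 rose with mix 2 (medians -0.42 and -0.18). The activator CDC20 (-2.31 and -3.34), the conjugating enzyme UBE2C (-1.96 and -2.75) and the inhibitor FBXO5 (-1.85 and -2.32) fell, and the core subunits ANAPC16 (0.81 and 1.01) and ANAPC11 (0.20 and 0.22) rose. Of 11 genes of the cullin ligases for cyclins D and E, 6 fell and 4 rose with mix 1 and 2 fell and 3 rose with mix 2 (medians -0.24 and 0.06). SKP2, the F-box protein that marks p27 for destruction, fell steeply (-2.94 and -4.39), FBXO4 fell by less (-1.05 and -0.32), and AMBRA1, the adaptor for D cyclins, CUL3 and SKP1 rose by 0.37, 0.18 and 0.19 with mix 1 and by 0.35, 0.29 and 0.25 with mix 2.

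Genes for transcription factors that activate or repress these cyclin genes also moved. Of 13 genes of E2F factors and pocket proteins, which include activators and repressors of the E cyclins and CCNA2, 12 fell and 1 rose with mix 1, and 9 fell and 1 rose with mix 2 (medians -0.69 and -0.86). The genes with the lowest mean change, E2F8 (-3.44 and -3.15), E2F5 (-1.12 and -2.66) and the pocket protein gene RBL1 (-1.46 and -2.18), are known as repressors. E2F7 was higher with mix 1 (0.78) and lower with mix 2 (-0.86), and RBL2 was lower with mix 1 (-0.26) and higher with mix 2 (0.64). Of 9 genes for the MuvB complex, B-MYB, FOXM1 and NF-Y, which act on promoters such as that of CCNB2 above, 6 fell with mix 1 and 7 with mix 2, and none rose (medians -0.96 and -1.06; 3 and 2 were not called). LIN9 (-1.19 and -2.52), LIN52 (-0.96 and -2.49) and FOXM1 (-1.12 and -1.49) were among them.

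The lists tied to the G cyclins differed from each other. Of 13 FOXO genes and targets other than cyclins, 12 rose with mix 1 and none fell, and 12 rose and 1 fell with mix 2, with a median of 1.03 under each. PIK3IP1, an inhibitor of PI3 kinase (1.67 and 1.63), the factor gene FOXO1 (1.20 and 2.10) and the repressor gene BCL6 (1.61 and 1.30) rose, and INSR, the insulin receptor gene, was higher with mix 1 (0.71) and lower with mix 2 (-0.90). CDKN1B and SESN1 of that list also stand in the lists of CDK inhibitors and p53 targets. Of 13 p53 targets other than cyclins, 8 rose and 5 fell with mix 1, and 6 rose and 6 fell with mix 2 (medians 0.36 and 0.09). GDF15 (3.20 and 2.70), TP53INP1 (3.24 and 1.74) and the repair gene XPC (0.44 and 0.89) rose, while MDM2 (-0.44 and -2.15), GADD45A (-0.77 and -1.16) and ZMAT3 (-1.18 and -0.66) fell; the line carries a mutant p53. Of 10 genes for PP2A subunits and the cyclin G-associated kinase GAK, 3 rose and 3 fell with mix 1, and 6 rose and 4 fell with mix 2. The mix 1 counts are near the shares over all tested genes, 34.8% higher and 32.3% lower. The scaffold gene PPP2R1B (-0.29 and -2.49) and the catalytic PPP2CA (-1.18 and -0.32) fell, PPP2R5C fell with mix 1 (-0.40) and rose with mix 2 (0.27), and PPP2R5A (0.50 and 0.25), PPP2R5B (0.35 and 0.17) and GAK (0.32 and 0.27) rose.

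The remaining cyclin genes showed no common direction. Of 17 tested, 5 fell and 6 rose with mix 1, and 8 fell and 4 rose with mix 2, with medians of -0.11 and -0.09. Over all tested genes, 32.3% were lower and 34.8% higher with mix 1, and 31.9% and 36.7% with mix 2. CCNA1, the germ-line relative of CCNA2 (-2.04 and -1.78), CCNH, the partner of CDK7 (-0.84 and -0.83), and CCNQ (-0.72 and -0.56) fell. CCNJL (1.46 and 1.27), CCNI (0.52 and 0.72) and the splicing-linked CCNL2 (0.65 and 0.34) rose. CCND2, the third D cyclin, named after its values were seen, rose with mix 1 (1.00, adjusted p = 1.53e-07) from 6.88 log2, and with mix 2 its difference of 0.20 did not pass (adjusted p = 0.0714). Of 11 reference genes often taken as stable, TFRC, HPRT1 and TBP fell under both mixes, B2M and YWHAZ rose under both, PGK1 rose with mix 1 (0.15) and SDHA with mix 2 (0.27).

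Across the 12 arrays, with each gene set to 0 at its control mean, the genes closest to CCNE2 were the mitotic kinesin KIF23 and SKP2, with root mean square differences of 0.172 and 0.207 log2. For CCNA2 these were SHCBP1 and CENPK (0.144 and 0.145), for CCNB1 STIL and TIMM10 (0.066 and 0.103), and for CCNB2 the centromere gene CENPU and the centriole kinase PLK4 (0.051 and 0.086). For CCNE1 they were the co-chaperone FKBP4 and NOL10 (0.086 and 0.096), and for CCNF, PCIF1 and ZNF280C (0.113 and 0.120). TOX2 and SAT1 lay closest to CCNG2 (0.076 and 0.113), FBXW11 and SLAIN2 to CCNG1 (0.064 and 0.068), CCDC47 and GGH to CCND1 (0.083 and 0.088), and PLAUR and PIP4P1 to CCND3 (0.062 and 0.067).

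Some markers of other cell types rose under both mixes. Of 7 leukocyte markers with a probe set, 5 passed the filter, which uses the average of all 12 arrays. Among them, 3 rose under both mixes, LYZ (4.19 and 4.22), CD14 (1.12 and 1.24) and CD3D (0.93 and 1.31). In control, LYZ (4.96 log2) and CD14 (5.15 log2) lay below the filter level, so these values do not give the sizes of their rises. PTPRC, which all leukocytes express, stayed at 4.04, 3.80 and 4.47 log2, below the filter level. The log2 values of the 7 summed to 35.47 to 36.98 in control, 41.75 to 42.32 with mix 1 and 42.64 to 43.53 with mix 2. This sum includes LYZ, whose mean alone went from 4.96 log2 in control to 9.14 with mix 1 and 9.18 with mix 2. Of 8 endothelial and fibroblast markers, 4 were above the filter level. PECAM1, COL1A1 and PDGFRB rose under both mixes, and VWF did not change by a called amount (-0.05 and 0.035). Below the filter level, CDH5, which defines endothelium, stayed at 3.97, 3.92 and 3.93 log2. KDR was at 5.30, 4.56 and 5.30, COL1A2 at 4.77, 4.47 and 4.79, and DCN at 5.46, 5.38 and 5.53. The summed level of the 8 was 44.18 to 45.18, 47.92 to 48.99 and 47.77 to 48.87. The part of other cells in the cyclin results was not tested.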

How the data were processed

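The authors deposited log2 expression values, 1 column per array for 12 arrays, computed by RMA, as named in the submitters' processing notes; which program ran RMA, and with what settings, is not given in the sources. RMA in its usual form gives all arrays a common distribution, so a change common to most genes could be hidden. GEO's platform annotation gave 1 gene symbol to 41097 of 54675 probe sets, several to 1801 and none here to 11777; 41043 of these matched the RefSeq gene table of GRCh38.p14 by gene ID and took its symbol. The 62 control probe sets were left out, as were probe sets with a mean at or below the 40th percentile (5.46 log2), and the brightest probe set stood for each gene.

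Differences were tested with limma 3.58.1, under R 4.3.3 (a mean for each of 3 groups in lmFit, then eBayes by default), two-sided, adjusted by Benjamini-Hochberg over 13225 genes, or over 41091 probe sets without a filter. SEs and 95% confidence intervals come from this fit. The number of arrays limits the precision. Differences between 2 cyclins within arrays were compared by exact permutation tests. The code was tested on simulated data. The cyclins, gene lists, motifs and tests were chosen with earlier results of these data known. From each list the text names up to 3 genes per direction called under both mixes, by the mean of their changes, and every gene of a count of 3 or fewer, unless it says otherwise.

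Deviations from the group means of same-letter arrays correlated at 0.370, 0.251, 0.409 and 0.340 between mix 1 and control, all above 0.1, so these letters may pair arrays; between mix 2 and control (0.034 to 0.212) and between the mixes (-0.085 to 0.273) they did not all. Between mix 1 and control, and between the mixes, the same letter correlated best for A, C and D but not for B. From mix 2 to control it did so for D alone. Alternatives were other filters, probe set choices, scalings, a replicate block, only the groups compared, and leaving out each array.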

Additional observations from a re-analysis of the deposited data

Results flagged for a closer look

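On the brightest probe sets, 1 array stood apart from the other 3 of its group in 3 of the 30 combinations of gene and group checked by Dixon's test, which flags about 1 in 20 by chance. CCND3 was at 9.95 log2 on mix 2 replicate A, beside 10.03 to 10.04 on the others. CCNE1 was at 7.26 on mix 2 replicate C, beside 7.39 to 7.40. CCNG1 was at 11.14 on mix 2 replicate B, beside 11.27 to 11.29. The gap was at most 0.13 log2 in each case.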

How the results depend on the processing

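Under the alternatives run, 8 or 9 cyclins were called in each comparison, and the counts of called probe sets were 16 to 17, 18 to 19 and 12 to 15. For probe sets, quantile normalization, fits of only the groups compared and fits without each array were chosen after seeing the data. Differences between 2 cyclins were not run without single arrays. With the replicate letters as a block, 9 cyclins were called in each of the 3 comparisons, and this paired fit changed no call of a cyclin. Of 597 values of single cyclins under alternatives, 589 kept their direction and their side of the threshold, and 3 that passed in neither fit changed sign. These were CCND3 with mix 2 against control (0.16 with the mean of probe sets) and CCNE1 between the mixes (0.0091 with quantile normalization, 0.0233 without mix 1 replicate C, and between -0.0833 and that value without any 1 array). The 5 that did not pass any more were those of CCNF and CCND3 between the mixes, given beside their results; for CCNF the cause was not tested. The difference between CCNB2 and CCNB1 depended on the probe sets. With the mean of each gene's probe sets, CCNB2 minus CCNB1 was 0.58 with mix 1 and 1.17 with mix 2 against control, and 0.59 between the mixes, since 1 of the 2 CCNB2 probe sets averaged is dim and did not change. Without shared probe sets it was -0.33, 0.13 and 0.46, since another CCNB1 probe set was read. CCND3 minus CCND1 between the mixes passed with the mean of probe sets (0.47). CCNG1 could not be read without shared probe sets. Among the cyclins, low signal limits CCNE2 under mix 2, the second probe sets of CCNE2 and CCNF under both mixes, and the 6 dim probe sets. Genes named from the lists also lay near the filter level with mix 2, among them EXO1 (5.495 log2), CDC25A (5.62) and LIN9 (5.73). Low signal limits the sizes of their falls with mix 2 as well.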

Other observations

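On the brightest CCNF probe set the arrays of replicates A and B lay above those of C and D in all 3 groups, at 8.57 and 8.66 against 8.45 and 8.36 log2 in control, 7.56 and 7.48 against 7.08 and 7.15 with mix 1, and 7.08 and 7.15 against 6.88 and 6.81 with mix 2. The second CCNF probe set did not show this order in control (6.32 and 6.41 against 6.49 and 6.28) and ran the other way with mix 1 (5.06 and 4.78 against 5.44 and 5.60). CCND1 showed the same order in control (12.05 and 12.04 against 11.86 and 11.84) but not with mix 1 or mix 2. The array medians of A and B were 5.69 each in control, below the 5.75 and 5.73 of C and D, and 5.71 each against 5.78 and 5.77 with mix 1, with no such order with mix 2 (5.73 and 5.74 against 5.74 and 5.73). The 3′ minus 5′ value of ACTB was 1.99 and 1.88 log2 for A and B against 1.53 and 1.38 for C and D in control, 2.04 and 2.24 against 1.78 and 1.61 with mix 1, and 1.57 and 1.36 against 1.36 and 1.83 with mix 2; its part in these values was not tested.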
